A study of Mus musculus with 2 samples.

Results

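The genes described here build and run the lysosome: acid hydrolases and other proteins of its lumen, proteins of its membrane, subunits of its proton pump and the transcription factors that control them. The set is a list of 32 mouse genes. Each gene was represented by 1 microarray probe set (a group of short probes for the same transcript), the one with the highest mean signal over both arrays among probe sets annotated to that gene alone. Of the 32 genes, 30 had such a probe set and 29 had a usable signal, out of 18193 and 13290 genes in the whole series. Cd63 and Atp6v0c were not analysed here. Npc1, encoding the membrane protein that moves cholesterol out of the lysosome, was too dim after normalization (deposited signal of 4.32 in wild type and 2.61 in c-Maf KO).

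RNA came from fetal liver macrophages of C57BL/6J mice at E15.5 (day of embryonic development), sorted as cells carrying both Mac-1 and F4/80. A single GeneChip array was hybridised with RNA from c-Maf+/+ embryos (wild type) and a single one with RNA from c-Maf-/- embryos (c-Maf KO); no treatment was given. The sources used here do not say how many embryos went into each array, nor where the deletion lies. The protein c-Maf, encoded by Maf, is a transcription factor of the basic leucine zipper type. The design asks which genes are lower in macrophages that lack it. With 1 array per genotype no test was possible, so each value below describes these 2 arrays, and their number limits the precision.

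Lysosomes digest what macrophages take up. Hydrolases work in a lumen acidified by the vacuolar proton pump (V-ATPase), whose V1 sector splits ATP and whose V0 sector passes protons through the membrane. Heavily glycosylated proteins such as Lamp1 and Lamp2 line the membrane. Many lysosomal genes carry an E-box motif of the CLEAR type near their start, which is bound by Tfeb, Tfe3 and Mitf of the MiT family. In the fetal liver, macrophages engulf the nuclei that erythroblasts expel, and lysosomal enzymes degrade them.

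Promoter windows in RefSeq (GRCm38.p6, from 250 bases before to 50 after each start site) were found for 29 of the 32 genes and not for Npc1, Atp6v1b2 and Atp6v0d2. The E-box core CACGTG lay in the windows of 7 of the 29 genes (24.1%) and of 8.09% of all 27025 genes with a window. Its 8 base form TCACGTGA, which contains the core, was in 4 of the 29 (13.8%), namely Gla, Mcoln1, Atp6v1a and Atp6v0d1, and in 1.12% of all genes. Both motifs read the same on either strand. They are shown here, 5′ to 3′ on the strand of the gene, because many lysosomal genes are known to carry this type of motif. Most of the 29 genes did not hold it in these windows. Capitals mark matches to the core, to its 8 base form and to a related motif, the M-box TCATGTGA. The Lamp1 and Acp5 stretches were added after the matches had been seen.
Gla, chrX:134601162-134601255, minus strand: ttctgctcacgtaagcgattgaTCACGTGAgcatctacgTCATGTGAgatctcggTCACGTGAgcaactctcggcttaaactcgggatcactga
Mcoln1, chr8:3500418-3500511, plus strand: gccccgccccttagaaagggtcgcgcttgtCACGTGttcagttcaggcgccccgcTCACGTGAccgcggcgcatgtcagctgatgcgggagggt
Atp6v1a, chr16:44139353-44139421, minus strand: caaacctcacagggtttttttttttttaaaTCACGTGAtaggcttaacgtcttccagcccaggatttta
Atp6v0d1, chr8:105566040-105566098, minus strand: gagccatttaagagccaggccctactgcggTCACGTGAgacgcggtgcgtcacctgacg
Lamp1, chr8:13159070-13159181, plus strand: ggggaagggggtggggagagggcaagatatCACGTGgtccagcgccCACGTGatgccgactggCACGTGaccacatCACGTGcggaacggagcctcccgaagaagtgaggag
Acp5, chr9:22130652-22130719, minus strand: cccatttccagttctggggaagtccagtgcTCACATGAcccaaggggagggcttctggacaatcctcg

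Gla held the 8 base form at 228 and 195 bases before the start site, with an M-box between them at 211. Mcoln1 held it at 46 bases before the start, beside a plain core at 71. In Atp6v1a it lay 132 bases before, and in Atp6v0d1 it began 4 bases before the start and ran across it. Lamp1 held 4 cores, at 61, 45, 28 and 15 bases before its start. Acp5 held no core but the M-box on the opposite strand, 91 bases before the start; this motif was chosen after its matches were seen and was in 4 of the 29 genes and in 1.15% of all. The core of the half-site recognised by Maf proteins, TGCTGA on either strand, was in 6 of the 29 genes (20.7%), namely Gla, Lamp2, Scarb2, Laptm5, Atp6ap2 and Mitf, and in 21.7% of all. A match is a description of these letters only.

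**Figure D1:**
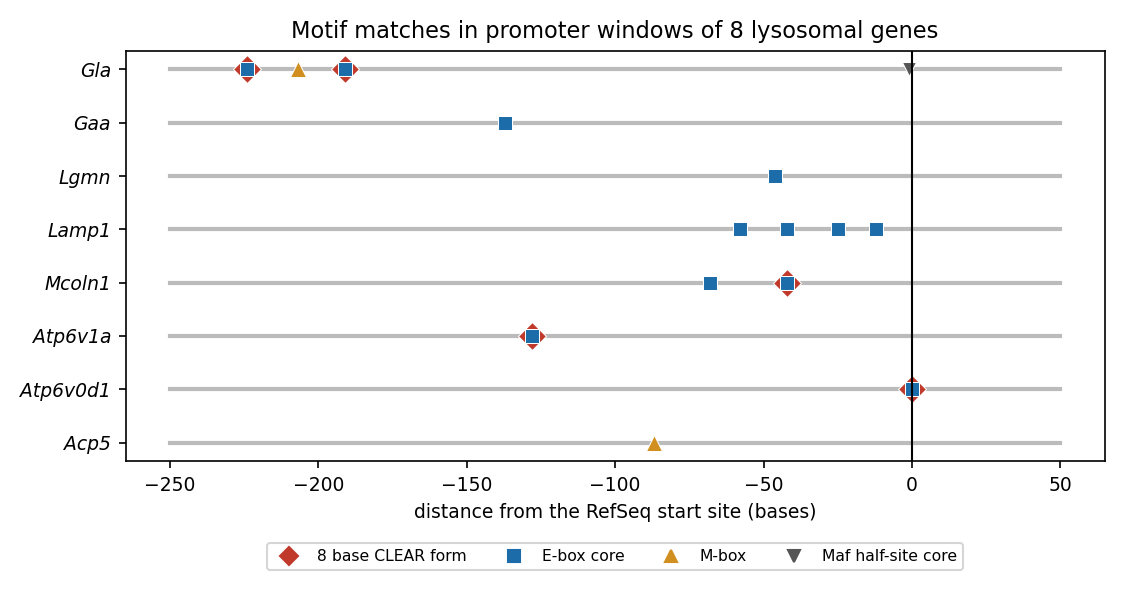
Positions of motif matches in the RefSeq promoter windows of 8 lysosomal genes. The horizontal axis gives the distance in bases from the start site (0), grey bars span each 300 base window, diamonds mark the 8 base CLEAR form, squares the E-box core, upward triangles the M-box and downward triangles the Maf half-site core. Matches lie between 228 bases before the start and the start itself, and Lamp1 has 4 cores close together.

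The knockout array was dimmer as a whole, with a median signal of 2.98 against 4.73 over all probe sets, while the median of log2 ratios over 18 hybridisation controls was 0.24. Quantile normalization, which gives both arrays the same distribution of signals, brought the median gene from -0.79 to 0.01. Normalized ratios were therefore used, beside deposited signals, and "higher" and "lower" refer to the normalized ratio of c-Maf KO over wild type. Values under a floor of 3.85 after normalization were raised to it, and a gene under it on 1 array has only a bound. The 3′ to 5′ signal ratio was 13.3 in wild type and 6.05 in c-Maf KO for Actb, and 1.83 and 0.90 for Gapdh. On the brightest Maf probe set the signal was 47.6 and 0.22, at least 8.96-fold lower. All 12 macrophage markers were measured, with a median ratio of 0.11, 8 above 0 and 4 below. Vcam1 (-1.81) was at least 2-fold lower, and Cd68 (1.47), Fcgr1 (1.24) and Siglec1 (1.33) were higher. Of all genes measured, 9.4% were 2-fold lower and 8.82% higher. The summed deposited signal of the 12 was 907 in wild type and 416 in c-Maf KO, and that of all genes 777000 and 382500. Csf1r alone gave 624.5 and 247.5 of the macrophage sum. Both antigens of the sort were among the macrophage markers, Adgre1 (F4/80) at 71.4 and 48.1 and Itgam (Mac-1) at 5.76 and 3.94. All 8 granulocyte markers were measured (sum of 14810 and 8567), with 2 of them 2-fold lower, Mpo (-1.16) and Camp (-1.55), and a median of -0.54. All 8 erythroid markers were measured (sum of 8467 and 5391), with 2 of them 2-fold higher, Klf1 (1.54) and Rhag (1.05), and a median of 0.05. Of the 3 monocyte markers measured (sum of 2602 and 1013), Ccr2 was at -1.68, F13a1 at -0.90 and Plac8 at 1.25. Of the 7 hepatoblast markers with a probe set 6 were measured, all at least 2-fold higher, and their summed signal was 350 and 560. In these bulk samples fewer cells of a type and less RNA per cell cannot be told apart.

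Of the 29 lysosomal genes, 2 were at least 2-fold lower in c-Maf KO, Atp6ap1 and Psap, and 1 was at least 2-fold higher, Acp5. The other 26 were within 2-fold. The lower genes made up 6.90% of the 29, against 9.4% of all 13290 genes measured, and the higher gene 3.45%, against 8.82%. With so few calls, both counts are close to the background. The share of lower genes was under that of all genes on this scale, and above it in the deposited, equal median and centred values given next. The median log2 ratio was -0.20 for the 29 genes and 0.01 for all genes, with 15 genes below 0 and 14 above. At a limit of 1.5-fold, 9 of the 29 were lower (31.0%, against 21.3% of all genes) and 5 were higher (17.2%, against 21.5%).

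The counts moved with the scaling. In deposited values 14 of 30 genes were at least 2-fold lower (46.7%, against 39.8% of all genes) and Acp5 alone was higher (3.33%, against 1.19%). With both arrays scaled to the same median, 10 of 29 were lower (34.5%, against 16.3% of all genes) and 1 higher (3.45%, against 4.74%). With deposited ratios centred on the median gene, 6 of 30 were lower (20.0%, against 8.22%) and 2 higher (6.67%, against 13.9%). With a loess fit to signal the same 3 genes were past 2-fold as on the normalized scale, 2 lower (6.9%, against 9.29%) and 1 higher (3.45%, against 7.9%). Atp6ap1, Psap and Acp5 were past 2-fold in their direction under each of the 6 scalings.

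**Figure D2:**
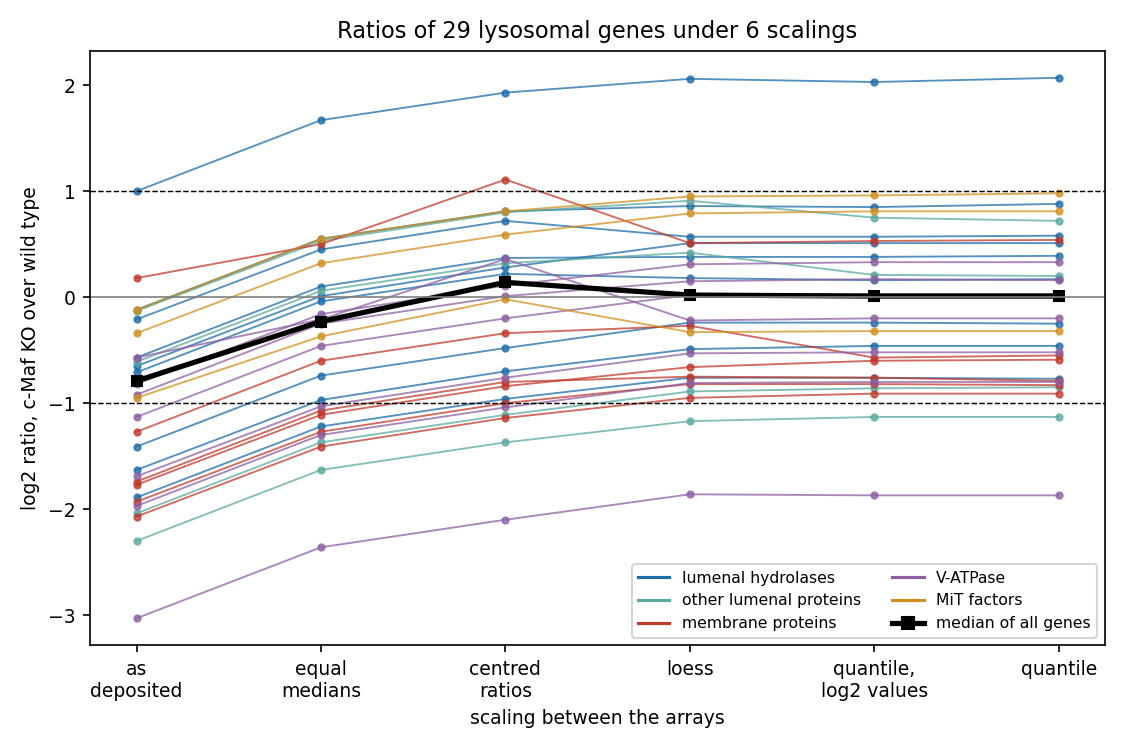
Log2 ratio of c-Maf KO over wild type (vertical axis) of 29 lysosomal genes under 6 ways of scaling the arrays (horizontal axis), a line per gene coloured by group, with the median of all genes as a black line and dashed lines at 2-fold. Most lines follow the median of all genes, which moves from -0.79 as deposited to 0.01 after quantile normalization, and Acp5 stays on top and Atp6ap1 at the bottom.

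Of the 9 lumenal hydrolases, 1 was at least 2-fold higher and none lower, beside 8.82% and 9.4% of all genes. Ratios were above 0 for 6 and below 0 for 3, with a median of 0.39, which was 0.01 with equal medians and -0.65 as deposited. Acp5 encodes tartrate-resistant acid phosphatase, an enzyme of osteoclasts and of iron-handling macrophages. Its signal was 12.8 in wild type and 25.6 in c-Maf KO, and among the members above the floor on both arrays it was the only one brighter in c-Maf KO as deposited. The normalized log2 ratio was 2.07, a 4.21-fold difference, and 99.6% of all genes lay at or below it. Acp5 has a single probe set. Of 6 osteoclast markers 4 were measured and none was past 2-fold. Mmp9 was at 14.0 in wild type and 7.42 in c-Maf KO, Dcstamp at 8.602 and 3.59 and Ctsk at 6.62 and 4.62. Their normalized ratios were 0.01, -0.53 and 0.23. Ocstamp was under the floor in wild type, with a ratio of at least 0.20, and Calcr and Oscar were under it on both arrays.

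Lipa, the acid lipase that frees cholesterol and fatty acids from engulfed lipids, was at 12.7 in wild type and 11.6 in c-Maf KO. Its normalized ratio was 0.88, but its 2 other probe sets were at 0.38 and -0.48. Lgmn, the asparaginyl endopeptidase legumain, was at 0.58 (6.96 to 6.00), and Gaa, the enzyme that breaks down lysosomal glycogen, at 0.51 (74.2 to 47.2). These 3 ratios were above 0 under each scaling other than the deposited values, where they were -0.12, -0.21 and -0.65.

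Gusb, β-glucuronidase, had the lowest ratio of the hydrolases. Its signal went from 58.6 to 15.8, a normalized ratio of -0.77. A dim second Gusb probe set went the other way, from 3.40 to 6.68. Hexa, a subunit of β-hexosaminidase, was at -0.46 (310 to 100), and the α-mannosidase gene Man2b1 at -0.25 (124 to 46.7). Gla, α-galactosidase A, was at 0.17 (11.3 to 6.89), which turned to -0.04 with equal medians. For Acp2, a second lysosomal acid phosphatase, the brightest probe set was at 0.39 (12.8 to 8.64), while the 2 others were at -0.98 and -1.15. The direction of Acp2 thus depended on the probe set, and as deposited its chosen ratio was -0.57.

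Among the other lumenal proteins, Psap was 2-fold lower and Creg1 had a ratio below 0, while Npc2 and Grn had ratios above 0, which were -0.13 and -0.61 as deposited. Psap encodes prosaposin, the precursor of the saposins that present sphingolipids to hydrolases. Its signal was 457 in wild type and 92.6 in c-Maf KO, a normalized ratio of -1.13 or 2.19-fold. A second Psap probe set was at 62.4 and 45.5, a ratio of 0.71, and the mean over both was -0.21. Creg1, a secreted glycoprotein that reaches lysosomes, was likewise split, at -0.85 on the brightest probe set (317 to 77.0) and 0.68 on the other (31.2 to 22.8). The 2-fold call of Psap therefore rests on 1 of its 2 probe sets.

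Npc2 binds cholesterol in the lumen and hands it to Npc1. The Npc2 signal was 712 in wild type and 649 in c-Maf KO, a normalized ratio of 0.72. All 4 measured probe sets of Npc2 were above 0, between 0.12 and 0.91. Grn, encoding progranulin, was at 0.20 (1014 to 665), with its other probe sets at 0.00 and 0.02. Grn was thus near the median of all genes on every probe set.

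Of the 6 membrane proteins measured none was 2-fold lower or higher, and 5 had a ratio below 0. Their median was -0.69, against 0.01 for all genes. It was below 0 under each of the 6 scalings, between -0.68 and -1.76, and in deposited values 5 of 7 members were 2-fold lower, where 39.8% of all genes were. On the brightest probe set, Lamp1, Lamp2, Scarb2, Mcoln1 and Laptm5 were below 0 under each scaling. Mcoln1 had another measured probe set at 0.29, and Laptm5 others from -2.43 to 0.46. Lamp1, Lamp2 and Laptm5 lay in the brightest of 5 equal bins of genes, whose median was -0.19. The 41 other lysosomal membrane proteins measured, described further below, had a median of -0.01, with 21 below 0 and 20 above. The lower median thus belongs to the 6 listed genes and was not seen in that wider list. That list was also dimmer, with a summed deposited signal in wild type of 1208 over 45 genes, against 2742 over 7 listed genes. The difference from other genes could not be tested with 1 array per genotype.

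Lamp2, which lines the membrane and serves as the receptor of chaperone-mediated autophagy, was at 502 in wild type and 119 in c-Maf KO. The normalized ratio was -0.91, and its 3 other probe sets were at -0.69, -0.40 and -0.35. Scarb2 encodes LIMP-2, which carries β-glucocerebrosidase to the lysosome. Its 2 probe sets were at -0.83 (51.6 to 13.5) and -0.52 (16.0 to 6.05). Among members with at least 2 measured probe sets, Lamp2, Scarb2 and Man2b1 had all of them below 0.

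Lamp1, the most used marker of the lysosomal membrane, was at -0.59 (505 to 148) on its single probe set. Mcoln1, the calcium release channel TRPML1, was at -0.79 (22.8 to 6.86), with a dim probe set at 0.29 (5.85 to 4.33). Laptm5, a membrane protein of blood cells that takes part in receptor degradation, was at -0.55 (1655 to 686). Its 4 other probe sets ran from -2.43 to 0.46, the widest range of any member. Gpnmb, a glycoprotein of phagocytes and pigment cells, was the exception in the group: its signal was 1.58 in wild type, under the floor, and 4.20 in c-Maf KO, so it was at least 1.45-fold higher.

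**Figure D3:**
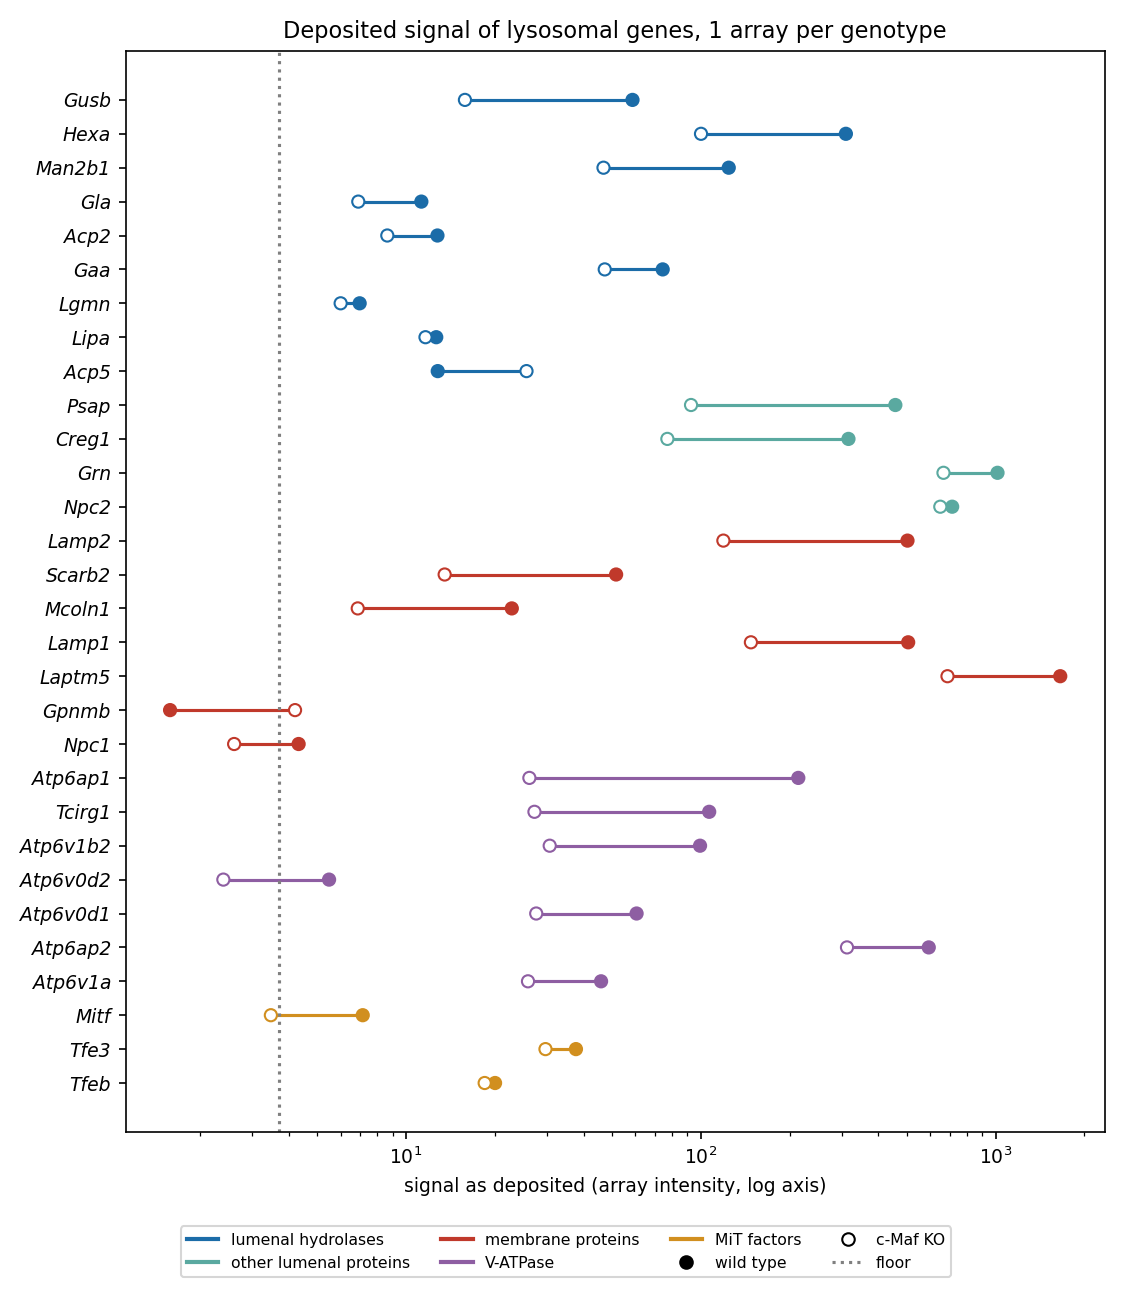
Deposited signal (horizontal log axis, array intensity) of the 30 lysosomal genes with a probe set, filled circles for wild type and open circles for c-Maf KO, a row per gene coloured by group, with the floor of 3.70 as a dotted line. In 28 of the 30 rows the c-Maf KO circle lies to the left; Acp5 (12.8 to 25.6) and Gpnmb (1.58 to 4.20) are the exceptions.

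In the V-ATPase, 1 of 7 measured subunits was at least 2-fold lower and none higher, beside 9.4% and 8.82% of all genes. The median was -0.20. Atp6ap1 encodes Ac45, an accessory protein needed for assembly of the V0 sector. Its signal was 214 in wild type and 26.2 in c-Maf KO, the lowest ratio of all members at -1.87 (3.66-fold lower), and 1.1% of all genes lay at or below it. Atp6ap1 has a single probe set, of the type whose probes can match more than 1 transcript (suffix _s). The other accessory gene, Atp6ap2, which encodes the prorenin receptor, was at 0.16 (593 to 313) on its brightest probe set, and at -0.99 (405 to 91.9) and -0.94 (69.6 to 16.5) on 2 others. The sign of its chosen ratio also turned with equal medians (-0.25).

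Of the V1 sector, Atp6v1a, the catalytic subunit, was at 0.33 (45.9 to 25.9) and 0.16 on its second probe set, but at -0.16 with equal medians. Atp6v1b2, its partner in the ATP-splitting ring, was at -0.52 (99.3 to 30.7), with a second probe set at 0.92 (29.4 to 25.3). Of the V0 sector, Tcirg1, the a3 subunit of osteoclasts and phagocytes, was at -0.80 (107 to 27.3). Atp6v0d1 was at 0.03 (60.5 to 27.6) and changed side with the scaling. Its paralogue Atp6v0d2, a subunit of osteoclasts, was near the floor, at 5.48 in wild type and 2.40 in c-Maf KO, at least 1.15-fold lower, and at 0.36 with centred ratios. Subunits of the pump did not share a direction.

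The MiT factors Tfeb and Tfe3, which switch on lysosomal genes when nutrients are short, both had ratios above 0, Tfeb just short of 2-fold. Tfeb was at 20.0 in wild type and 18.5 in c-Maf KO, a normalized ratio of 0.98. Tfe3 was at 37.7 and 29.7, a ratio of 0.81. Each has 1 probe set, both ratios were above 0 under the 5 scalings other than deposited values, and there they were -0.12 and -0.34. Mitf, the factor of osteoclasts, mast cells and pigment cells, was close to the floor at 7.13 and 3.48, with a ratio of -0.32. Of the 4 genes with the 8 base CLEAR form, Atp6v1a, Gla, Atp6v0d1 and Mcoln1, ratios ran from -0.79 to 0.33 with a median of 0.10, against -0.25 for the 23 other genes with a window and a ratio. The 6 genes with the Maf half-site core had a median of -0.44, against 0.20 for the 21 others. They include the membrane protein genes Lamp2, Scarb2 and Laptm5, and Laptm5 and Atp6ap2 had probe sets on both sides of 0. Neither split was made over all genes with a window, so these medians have no background. Any link between motif and ratio was not tested.

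**Figure D4:**
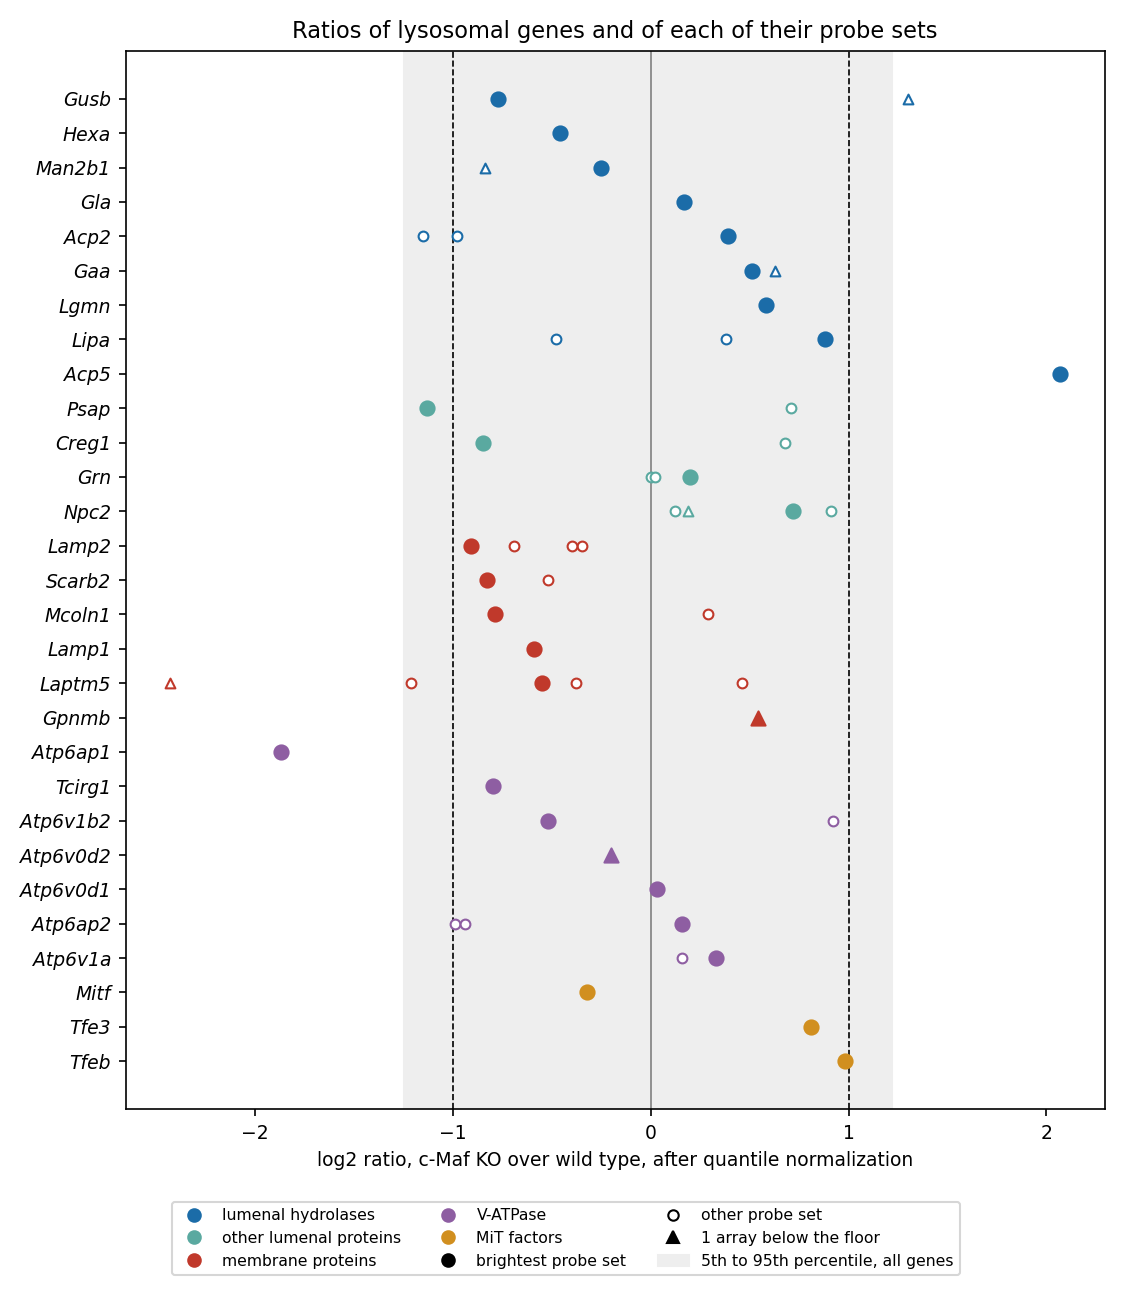
Normalized log2 ratio of c-Maf KO over wild type (horizontal axis) for 29 lysosomal genes, with the brightest probe set filled and other measured probe sets open; triangles have 1 array below the floor, dashed lines mark 2-fold, and the grey band spans the 5th to 95th percentile of all genes (-1.25 to 1.22). Among the brightest probe sets, those of Acp5 and Atp6ap1 lie outside the band, and 9 genes have probe sets on both sides of 0. Of the other probe sets, Laptm5 at -2.43 and Gusb at 1.30 lie outside it.

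Probe sets of the same gene often disagreed. Of the 16 genes with at least 2 measured probe sets, 7 had all of them on 1 side of 0 and 9 had them on both. Over all genes with bright probe sets, the SD of the ratio between probe sets of a gene was 0.74 (4077 probe sets of 1681 genes). This is no replicate error, since both arrays are shared, yet it exceeds the distance from 0 of most ratios given above. All 3 genes past 2-fold were represented by probe sets with an _a, _s or _x suffix, as were 16 of the 29 measured genes in all. When each gene was represented by its brightest probe set lacking a suffix, 20 genes were measured. None of the 20 was past 2-fold either way, where 9.12% of all genes were lower and 9.12% higher. Acp5, Atp6ap1 and Psap have only suffixed probe sets and drop out of this count, so it cannot bear on their calls. A dimmer Acp2 probe set without a suffix, at -1.15, was not the one counted.

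The ratio depended on signal as well. With genes measured on both arrays divided into 5 equal bins by mean signal, the median ratio was 0.18 at the lowest signals and -0.19 at the highest. The bin of highest signals held 14 of the 27 lysosomal genes measured on both arrays, and their median was -0.54, with 10 of the 14 below the median of the bin. With the loess scaling, fitted to signal over all probe sets other than controls, the median of the 29 genes was -0.22. The bin medians were not computed again after it, so whether it removed this trend among measured genes was not tested. The part of signal, of the 3′ to 5′ difference and of the cell markers in these ratios was not tested.

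**Figure D5:**
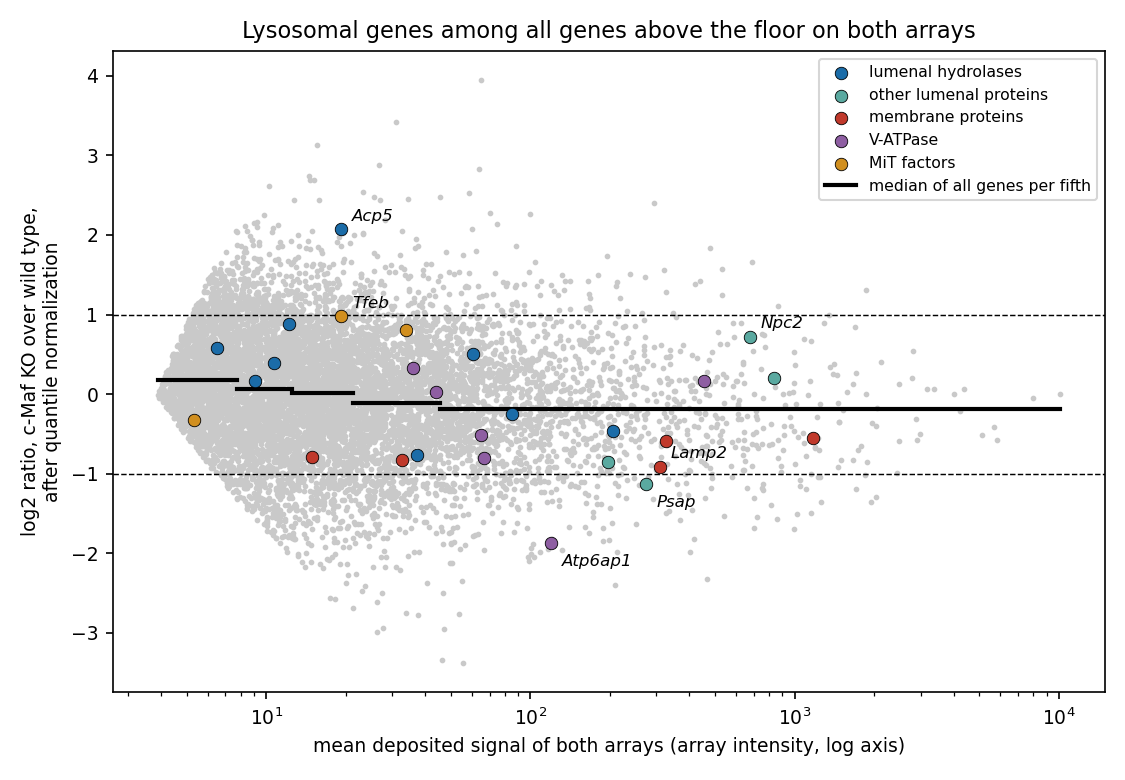
Normalized log2 ratio of c-Maf KO over wild type (vertical axis) against the mean deposited signal (horizontal log axis) for all genes measured on both arrays (grey) and the 27 lysosomal genes among them (coloured by group), with the medians of 5 equal bins of genes as black bars and dashed lines at 2-fold. Bin medians run from 0.18 at low signal to -0.19 at high signal; Atp6ap1 (-1.87) and Psap (-1.13) lie under the lower line and Acp5 (2.07) over the upper one.

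A further 165 measured genes of lysosomal and autophagic function are given for comparison: 13 were at least 2-fold lower (7.88%) and 9 higher (5.45%), beside 9.4% and 8.82% of all genes, with a median of 0.04. Of 38 other acid hydrolases and activators, 3 were lower and none higher: the dipeptidyl peptidase gene Dpp7 (14.5 to 3.08, -1.46), the N-acylethanolamine amidase gene Naaa (27.5 to 5.57, -1.40) and the β-mannosidase gene Manba (27.4 to 6.83, -1.05). Nagk, which encodes a kinase rather than a hydrolase, had the highest ratio of that list, 0.72, with its other probe set at -0.84. A dim probe set of Dpp7 was at 0.84, whereas all 3 of Naaa were below 0.

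Of 41 other membrane proteins, 3 were lower and 1 higher, with a median of -0.01. Tpcn2, an ion channel of endolysosomes, went from 10.45 to under the floor (at least 2.12-fold lower), Vps18, a tethering subunit for fusion with lysosomes, from 13.2 to under the floor (at least 2.63-fold lower), and the transporter gene Spns1 from 19.2 to 4.999 (-1.08). Lmbrd1, which exports vitamin B12 from the lysosome, was higher (5.09 to 8.30, 1.58), with its other probe sets at -0.45 and 0.17. Of 12 other V-ATPase subunits, 1 was lower, Atp6v1h of the V1 sector (36.5 to 4.14, -2.28), which had a second probe set at 0.41 (24.3 to 15.2). Atp6v1f was the highest of these at 0.61.

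In the sorting list none of 20 genes was lower and 2 were higher. These were Vps35, a retromer subunit that recycles sorting receptors (67.0 to 69.0, 1.24), and the adaptor gene Gga2 (22.7 to 21.0, 1.01), with deposited ratios of 0.04 and -0.11. The second Vps35 probe set was at 0.03 (18.4 to 9.37) after normalization. Vps26a, another retromer subunit, was lowest at -0.85.

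Of 22 genes that control mTORC1 and Tfeb, 3 were lower and 1 higher. Flcn and Fnip1 encode partners in the folliculin complex, which helps to keep Tfeb and Tfe3 out of the nucleus. Flcn went from 49.7 to 10.5 (-1.17), and its dim other probe sets were at -0.21 and -0.07. Fnip1 went from 22.6 to under the floor (at least 4.36-fold lower), but a second Fnip1 probe set was at 1.04 (7.90 to 8.63). Zkscan3, a repressor of autophagy genes, was at -1.32 (18.4 to 4.14), and its other probe sets were at -0.31 and 0.20. Rheb, the GTPase that activates mTORC1 on lysosomes, was higher (59.4 to 66.7, 1.35), with a deposited ratio of 0.17.

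Of 32 autophagy genes, 3 were lower and 5 higher, beside 9.4% and 8.82% of all genes. The lower ones were Wipi1 (-1.70), Rb1cc1 (-1.54), part of the initiating kinase complex, and Vps11 (-1.48), each with another probe set above 0. Other measured probe sets were at 1.40, 0.35 and -1.08 for Wipi1, 0.37 for Rb1cc1, and 0.30 and -0.94 for Vps11. The Wipi1 probe set at 1.40 (11.4 to 14.9) was thus past 2-fold the other way. The cargo receptor gene Sqstm1 (25.1 to 33.1, 1.53), the autophagosome protein genes Gabarap (88.0 to 102, 1.39) and Map1lc3b (99.0 to 90.9, 1.04), Atg7 (12.0 to 12.9, 1.11) and the lipid kinase gene Pik3c3 (6.09 to 7.18, 1.08) were higher. In deposited values these 5 ratios lay within 2-fold: 0.40, 0.21, -0.12, 0.11 and 0.24. A second Atg7 probe set was at -0.50 (6.80 to 0.59), and a second Map1lc3b probe set at -0.14 (115 to 46.7) after normalization.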

How the data were processed

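The deposited table of the authors holds a linear intensity for each of 45101 probe sets on 2 Affymetrix arrays; its summarisation and scaling are not given in the sources used here. Of the probe sets, 34945 named 1 gene in the platform annotation (34741 with an Entrez identifier in the GRCm38.p6 gene table), 932 named several and were left out, and 64 were controls. Intensities were quantile normalized, floored at the 50th percentile of pooled values (3.85, or 3.70 as deposited), and taken to log2. Each gene had 1 probe set, chosen on deposited signals. Genes above the floor on 1 or both arrays were counted past 2-fold. Python 3.11.15, pandas 2.3.3 and statsmodels 0.14.6 were used. The steps were run on a simulated copy of the wild type array with known changes, noise and a constant scale shift. That copy held no shift that depends on signal, and all probe sets of a gene had the same change. It therefore does not bear on the signal trend or on the disagreement of probe sets. Quantile normalization was done on linear values; that of log2 values was added after seeing the data. Other alternatives covered scaling, floor, probe set choice, brightness and fold.

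The text names all 32 genes, Maf as a check of the labels, and, of the further lists, each gene past 2-fold with the highest and lowest of each list. Promoter windows were searched for the motifs on both strands. Members and lists were chosen with earlier results of these data known.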

Additional observations from a re-analysis of the deposited data

How the results depend on the processing

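The count of lysosomal genes at least 2-fold lower was 2. It was 14 in values as deposited, 10 with equal medians and 6 with centred ratios, with the shares of all genes given above. With the mean over probe sets it was 1 (3.45%, against 5.46% of all genes). For probe sets without a suffix it was 0, against 9.12%. A 1.5-fold threshold gave 9 (31.0%, against 21.3%) and a 3-fold threshold 1 (3.45%, against 2.33%). The count at least 2-fold higher was 1. It was 2 with centred ratios (6.67%, against 13.9% of all genes). With the floor at the 25th percentile it was 2 (6.67%, against 17.96%), and both times these were Acp5 and Gpnmb. Without suffixed probe sets it was 0, against 9.12%. It was 5 at 1.5-fold (17.2%, against 21.5%) and 1 at 3-fold (3.45%, against 1.72%). The median ratio of -0.20 moved to -0.93 as deposited, where the median gene was at -0.79, and lay between -0.46 and 0.02 under the other alternatives. Under the 10 alternatives other than deposited values, 20 of 29 genes kept their sign wherever they were measured, 11 below 0 and 9 above. No gene past 2-fold changed sign under any alternative that measured it. The cause of these shifts was not tested. Fewer genes (20) were measured without suffixed probe sets, and Acp5, Atp6ap1 and Psap were not among them. No paired analysis was possible because each genotype has 1 array. Genes near the floor, such as Gpnmb, Atp6v0d2 and Mitf, are limited by their low signal.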
